A study of Homo sapiens with 12 samples.

Results

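Chromosomes 17 and 22 were examined in 4 genome-wide lists of intervals called with antibodies against HOXA13 or its HA tag in liver-cancer cells. Every interval placed on chromosome 17 or 22 was taken, which gave 6509 of the 164693 intervals in all 4 lists. Chromatin immunoprecipitation with sequencing (ChIP-seq) recovers DNA bound by a protein with an antibody, and a called interval is a stretch where the reads pile up above the level expected from unselected DNA (input). Both cell lines, HepG2 and Huh7, are derived from human liver tumours. The 4 antibody libraries were anti-HA in HepG2 cells stably transfected with HA-tagged HOXA13, anti-HOXA13 in HepG2 cells without the tag, anti-HA in Huh7 cells stably transfected with HA-tagged HOXA13, and anti-HOXA13 in Huh7 cells without the tag. Each was called against its own input, and each condition had 1 library, so no test between conditions was possible. All intervals printed below are exact 95% intervals that cover counting error only. The labels do not say which promoter drove the tagged protein or whether the transfected cells were 1 clone. Because anti-HA was used in tagged cells and anti-HOXA13 in untagged cells, antibody and cells cannot be told apart.

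HOXA13 is a homeodomain transcription factor of the HOXA cluster that patterns the distal limb, the hindgut and the urogenital tract in the embryo and is little expressed in normal adult liver. Homeodomain factors read short AT-rich motifs, and their ChIP signal usually sits at enhancers and promoters, which lie close together on gene-dense chromosomes. Open, GC-rich promoter chromatin also collects reads in unselected input, so the level expected from input was read beside every ChIP value. HepG2 is known to be aneuploid, with extra copies of several chromosomes that include chromosome 17. Copy number was not measured in these lists.

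The chromosomes answered to their description. In RefSeq, chromosome 17 held 1169 protein-coding genes, or 15.0 per covered Mb, and chromosome 22 held 451, or 12.8 per Mb, against 6.53 per Mb on the median autosome. These were ranks 2 and 3 of 22, behind chromosome 19 at 25.9. The median GC content of promoters was 62% on chromosome 17 and 63% on chromosome 22, against 57.7% for the median of 21 autosomes. Covered sequence, from first to last interval without peak-free stretches of 1 Mb or more, came to 78.1 Mb on chromosome 17 and 35.2 Mb on chromosome 22. On chromosome 17, a peak-free gap of 3.00 Mb at the centromere (GRCh37 chr17:22261675-25263076) parted 22.2 Mb of short arm, 17p, from 55.9 Mb of long arm, 17q. No interval lay on the short arm of chromosome 22. The labels state 50 M reads for each library. The lists give no read totals to set beside that.

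Intervals per Mb on chromosome 17 were near or modestly above the other autosomes. On chromosome 22 they ranged from below the other autosomes in HepG2 anti-HA to well above them in Huh7 anti-HOXA13. On chromosome 17, HepG2 anti-HA held 1188 intervals (15.2 per Mb), HepG2 anti-HOXA13 held 2137 (27.3 per Mb), Huh7 anti-HA held 931 (11.9 per Mb) and Huh7 anti-HOXA13 held 323 (4.13 per Mb). Over the density of the other 20 autosomes pooled, these were ratios of 1.21 (1.14 to 1.28), 1.04 (0.991 to 1.08), 1.14 (1.07 to 1.22) and 1.10 (0.982 to 1.23). Chromosome 17 thus ranked 7, 7, 8 and 8 of 22 autosomes, below its rank by genes. On chromosome 22, HepG2 anti-HA held 361 intervals (10.3 per Mb), HepG2 anti-HOXA13 held 918 (26.1 per Mb), Huh7 anti-HA held 437 (12.4 per Mb) and Huh7 anti-HOXA13 held 214 (6.09 per Mb). Their ratios to the other autosomes were 0.815 (0.733 to 0.904), 0.988 (0.925 to 1.05), 1.19 (1.08 to 1.31) and 1.62 (1.41 to 1.85). In Huh7 anti-HOXA13, chromosome 22 was second only to chromosome 19, which held 11.0 intervals per Mb.

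**Figure D1:**
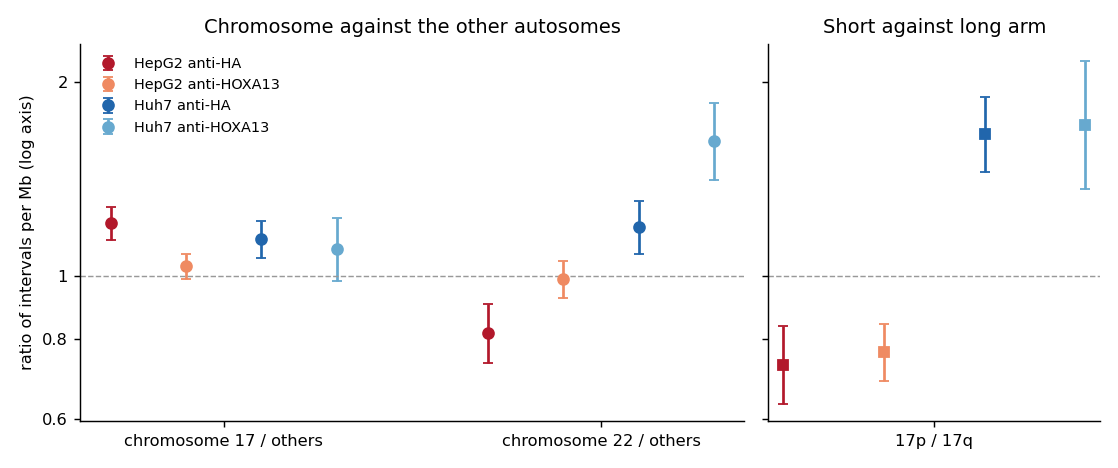
Ratio of called intervals per Mb (log axis), for chromosomes 17 and 22 over the other 20 autosomes (circles) and for 17p over 17q (squares), in each of 4 lists. Bars are exact 95% intervals for counting error. Chromosome 22 in Huh7 anti-HOXA13 lies at 1.62, and the arm ratio lies below 1 in both HepG2 lists (0.729 and 0.762) and above 1 in both Huh7 lists (1.66 and 1.72).

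What the chromosomes are set against, and the input level, both move these ratios. The pooled autosomes of the HepG2 lists include chromosome 20, which held 38.3 intervals per Mb with anti-HA and 119 with anti-HOXA13. Against the median autosome, chromosome 17 stood at 1.57 in HepG2 anti-HA and 1.31 in HepG2 anti-HOXA13, and chromosome 22 at 1.06 and 1.25. The pooled ratio of chromosome 22 in HepG2 anti-HA, below 1, was therefore above 1 against the median autosome. Its density of 10.3 per Mb (9.23 to 11.4) did not differ from that autosome, at 9.69 per Mb, beyond counting error. Intervals whose expected pileup exceeded 3 times the list's background are called intervals with raised input here. They made up 446 of 1188 HepG2 anti-HA intervals on chromosome 17 (37.5%, 34.8 to 40.4%) and 84 of 361 on chromosome 22 (23.3%, 19.0 to 28.0%), against 16.1% on the other autosomes. Without them the HepG2 anti-HA ratio of chromosome 17 was 0.899 (0.835 to 0.967), on the other side of 1. In Huh7 anti-HA they made up 130 of 931 intervals on chromosome 17 (14.0%, 11.8 to 16.4%) and 107 of 437 on chromosome 22 (24.5%, 20.5 to 28.8%), against 7.6% elsewhere. Without them the Huh7 anti-HA ratio was 1.06 (0.989 to 1.14) for chromosome 17 and 0.973 (0.870 to 1.08) for chromosome 22. Raised input was rarer in the anti-HOXA13 lists, at 2.43% on chromosome 17 and 1.20% on chromosome 22 in HepG2, against 1.45% elsewhere, and at 10.5% and 9.81% in Huh7, against 8.71% elsewhere. The ratio of 1.62 for chromosome 22 in Huh7 anti-HOXA13 was 1.60 (1.38 to 1.85) without raised input, but 1.03 (0.545 to 1.77) among its 13 intervals with a q of 0.05 or less. At that q the chromosome 22 ratio of Huh7 anti-HA was 2.17 (1.61 to 2.86), from 51 intervals, and the chromosome 17 ratios of the Huh7 lists were 1.76 (1.41 to 2.17) with anti-HA and 0.641 (0.378 to 1.02) with anti-HOXA13. At that q neither chromosome of Huh7 anti-HOXA13 was thus beyond counting error, and its chromosome 17 ratio lay on the other side of 1. Across the 22 autosomes, which share each list's library, density followed genes per Mb with a Spearman rho of 0.50 for HepG2 anti-HA, 0.59 for HepG2 anti-HOXA13, 0.15 for Huh7 anti-HA and 0.45 with Huh7 anti-HOXA13, as a description.

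Strong intervals, those with a −log10 q of 5 or more, were frequent in HepG2 anti-HA and rare in the other lists. HepG2 anti-HA held 298 strong intervals on chromosome 17 (25.1%, 22.6 to 27.7%) and 70 on chromosome 22 (19.4%, 15.4 to 23.9%), where 21% of the intervals on the other autosomes were strong. Of the 298 on chromosome 17, 185 had raised input, which was 15.6% of all intervals there (13.6 to 17.8%), against 6.26% elsewhere. The strong intervals without raised input were 9.51% of those on chromosome 17 (7.90 to 11.3%) and 11.9% of those on chromosome 22 (8.76 to 15.7%), against 14.8% on the other autosomes. Chromosome 17 was thus above the other autosomes by the share of strong intervals. The lower share without raised input has all intervals as its base, and more of these had raised input on chromosome 17. Among intervals without raised input alone, 113 of 742 (15.2%) were strong on chromosome 17 and 43 of 277 (15.5%) on chromosome 22. On the other autosomes 4812 of 27287 were strong, so no deficit is read from the lower share. A fold of 5 or more was reached by 114 HepG2 anti-HA intervals on chromosome 17 (9.60%, 7.98 to 11.4%) and 31 on chromosome 22 (8.59%, 5.91 to 12.0%), against 10.9% elsewhere.

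The remaining lists were made almost wholly of weak intervals on both chromosomes. HepG2 anti-HOXA13 had 20 strong intervals of 2137 on chromosome 17 (0.936%, 0.573 to 1.44%) and 0 of 918 on chromosome 22, with an exact upper limit of 0.401%, against 0.46% on the other autosomes. Huh7 anti-HA had 6 on chromosome 17 (0.644%, 0.237 to 1.40%) and 5 on chromosome 22 (1.14%, 0.373 to 2.65%), against 0.352%. Huh7 anti-HOXA13 had 6 on chromosome 17 (1.86%, 0.685 to 4.00%) and 3 on chromosome 22 (1.40%, 0.290 to 4.04%), against 2.65%. All 5 strong Huh7 anti-HA intervals on chromosome 22 and 4 of 6 on chromosome 17 had raised input, against 46 of 95 on the other autosomes. In Huh7 anti-HOXA13, 0 of the 9 strong intervals did, against 36 of 257. The intervals of the strong shares exclude the value elsewhere for HepG2 anti-HOXA13 on both chromosomes and for Huh7 anti-HA on chromosome 22. Of the 20 strong HepG2 anti-HOXA13 intervals on chromosome 17, 18 lay in the last Mb of 17p, all with raised input. With so few strong intervals, no difference from the other autosomes is read from these counts. No interval of HepG2 anti-HOXA13 or Huh7 anti-HA on either chromosome reached a fold of 5, where 0.103% and 0.0778% did elsewhere. Huh7 anti-HOXA13 had 2 such intervals on each, 0.619% (0.0751 to 2.22%) of chromosome 17 and 0.935% (0.113 to 3.34%) of chromosome 22, against 2.08%. A q of 0.05 or less was held by 57.7% (54.9 to 60.6%) of HepG2 anti-HA intervals on chromosome 17 and 54.0% (48.7 to 59.2%) on chromosome 22, against 50.3%. In HepG2 anti-HOXA13 it was held by 10.8% (9.52 to 12.2%) and 7.84% (6.19 to 9.78%), against 9.9%. In Huh7 anti-HA it was held by 9.88% (8.04 to 12.0%) and 11.7% (8.81 to 15.1%), against 6.42%, and in Huh7 anti-HOXA13 by 5.57% (3.34 to 8.66%) and 6.07% (3.27 to 10.2%), against 9.57%. Huh7 anti-HA thus had proportionally more intervals of low q on both chromosomes than elsewhere, and Huh7 anti-HOXA13 fewer on chromosome 17.

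**Figure D2:**
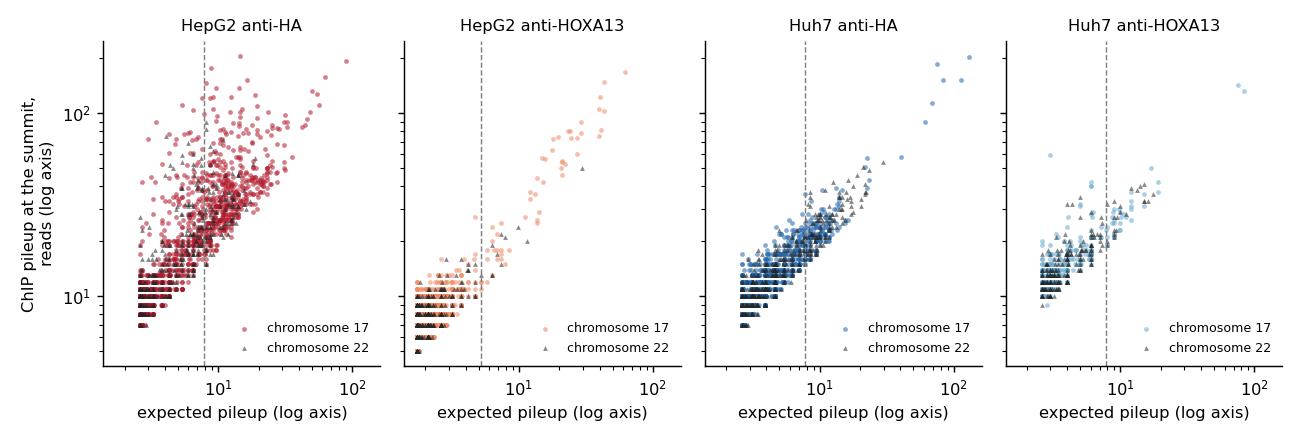
ChIP pileup at the summit (reads, log axis) against the pileup expected from input (log axis) for every interval on chromosome 17 (circles) and chromosome 22 (dark triangles), 1 panel per list. The dashed line marks 3 times the background expected pileup, and HepG2 anti-HA is the list with many intervals far above the band that runs along the lower edge.

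The height of a chromosome 17 interval in HepG2 anti-HA was larger on both sides of the ratio. The median ChIP pileup at the summit was 19 reads on chromosome 17 and 16 on chromosome 22, against 13 on the other autosomes. The median expected pileup was 5.53 and 4.85, against 3.77. The fold is the ratio of these pileups with 1 added to each, after the ChIP pileup of Huh7 anti-HOXA13 alone was scaled down by a factor of 0.812. In HepG2 anti-HA it had medians of 2.76 (2.72 to 2.79) on chromosome 17 and 2.80 (2.75 to 2.94) on chromosome 22, against 2.83 (2.83 to 2.84) elsewhere. In Huh7 anti-HA the median ChIP pileup was 12 and 13 reads, against 11, over expected pileups of 3.88 and 4.66, against 3.36. The anti-HOXA13 lists showed no such shift: the median ChIP pileup was 7 reads in HepG2 and 14 in Huh7 on chromosome 17, on chromosome 22 and elsewhere.

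Widths differed little. The median width in HepG2 anti-HA was 205.5 bp (199 to 214) on chromosome 17 and 201 bp (188 to 210) on chromosome 22, against 195 bp (194 to 196) elsewhere. In HepG2 anti-HOXA13 it was 134 bp (131 to 137) on chromosome 17 and 119 bp (116 to 124) on chromosome 22, against 130 bp (129 to 130). On chromosome 22, 335 of the 918 HepG2 anti-HOXA13 intervals (36.5%, 33.4 to 39.7%) had the smallest width in the list, 103 bp, and 580 of 2137 (27.1%, 25.3 to 29.1%) did on chromosome 17, against 30.9% (30.5 to 31.2%) elsewhere. In Huh7 anti-HA the medians were 153 bp (149 to 159) and 156 bp (150 to 167), against 147 bp (147 to 148). In Huh7 anti-HOXA13 they were 155 bp (147 to 162) and 161.5 bp (154 to 168), against 159 bp (157 to 160), so the intervals of these medians overlap.

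The highest folds on chromosome 17 belonged to HepG2 anti-HA and were mostly found in that list alone. At chr17:67464354-67464783 the fold was 20.2 (16.3 to 24.8), from 89 ChIP reads over an expected 3.46. No other list held an interval overlapping it, although a Huh7 anti-HA summit lay 1.01 kb away. At chr17:20568472-20569055 the fold was 18.3 (14.4 to 23.0), and at chr17:50024452-50024975 it was 17.5 (14.4 to 21.1). The intervals at chr17:39058264-39058748, with 17.9 (15.4 to 20.8), and chr17:70968387-70968875, with 16.2 (13.7 to 19.0), stood on raised input, with expected pileups of 8.88 and 8.09. None of these 5 overlapped an interval of another list. On chromosome 22 the leaders were chr22:40543753-40544126 at 15.0-fold (11.8 to 18.7), chr22:29281800-29282301 at 10.1-fold (7.89 to 12.7) and chr22:29179757-29180452 at 9.91-fold (7.98 to 12.2). The last had raised input and was the only one of the 8 that Huh7 anti-HA also held, at 2.53-fold.

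HepG2 anti-HOXA13 reached lower folds, and its leaders often tied because they rested on the same few reads. Its highest on chromosome 17, chr17:25266950-25267075, lies just past the centromere gap at 4.89-fold (3.28 to 7.04), from 27 reads. HepG2 anti-HA held it too, at 2.99-fold with a summit 9 bp away. The next 3 intervals all stood at 4.77-fold (2.64 to 8.06) from 12 reads over the background level. The highest on chromosome 22, chr22:16288439-16288554, stood at 4.61-fold (2.55 to 7.78), and HepG2 anti-HA held it at 1.87-fold.

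In Huh7, a single interval of chromosome 17 ranked second in its whole list. This was chr17:15619792-15620718 with anti-HOXA13, at 12.2-fold (9.37 to 15.7) from 59 ChIP reads, scaled by 0.812, over an expected 3.00, and no other list had an interval overlapping it. The next in that list, chr17:5085128-5086809, was 1682 bp wide and stood at 5.02-fold (3.65 to 6.73). On chromosome 22 the Huh7 anti-HOXA13 leaders stood at 5.40-fold (chr22:22823280-22823526), 5.08-fold (chr22:51087227-51087506) and 4.90-fold (chr22:46191967-46192246), all without an overlap in other lists. The Huh7 anti-HA leader, chr17:12196688-12196826, stood at 4.99-fold (3.02 to 7.82). It was also among the top intervals of Huh7 anti-HOXA13, at 4.79-fold (3.03 to 7.24) with summits 16 bp apart. The Huh7 anti-HA intervals at chr17:56906497-56906766 and chr17:5185272-5185830, at 4.43-fold and 4.39-fold, were held by HepG2 anti-HA at 4.21-fold and 3.98-fold. On chromosome 22 the Huh7 anti-HA leaders stood at 4.35-fold (chr22:25895844-25895982), 4.27-fold (chr22:17601814-17602210) and 4.05-fold (chr22:21771356-21771659). HepG2 anti-HA held the last of these at 3.02-fold.

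The arms of chromosome 17 leaned opposite ways in the cell lines. HepG2 anti-HA held 267 intervals on 17p (12.0 per Mb) and 921 on 17q (16.5 per Mb), a 17p over 17q ratio of 0.729 (0.634 to 0.836). HepG2 anti-HOXA13 held 497 on 17p (22.4 per Mb) and 1640 on 17q (29.3 per Mb), a ratio of 0.762 (0.688 to 0.843). Huh7 anti-HA held 370 on 17p (16.6 per Mb) and 561 on 17q (10.0 per Mb), a ratio of 1.66 (1.45 to 1.89). Huh7 anti-HOXA13 held 131 on 17p (5.89 per Mb) and 192 on 17q (3.43 per Mb), a ratio of 1.72 (1.36 to 2.15). The antibodies leaned the same way within each line, beyond counting error, and the lines leaned opposite ways with either antibody. Without the intervals of raised input the ratios were 0.691 and 0.718 in the HepG2 lists and 1.37 and 1.61 in the Huh7 lists. When every list was held to its best 10710 intervals by q, HepG2 anti-HOXA13 stood at 1.33 (0.906 to 1.93), on the other side of 1, and HepG2 anti-HA at 0.914 (0.709 to 1.17). Leaving out 49 to 55 Mb of 17q moved the HepG2 anti-HOXA13 ratio to 0.909 (0.817 to 1.01). Among the best intervals the lean of the HepG2 lists was thus not beyond counting error, nor was that of HepG2 anti-HOXA13 without that stretch. Median expected pileup was slightly higher on 17p than on 17q in 3 lists, at 5.93 and 5.51 in HepG2 anti-HA, 4.37 and 3.88 in Huh7 anti-HA and 3.69 and 3.22 in Huh7 anti-HOXA13. The copies of each arm were not measured, and their part in the lean was not tested.

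Along chromosome 17 the HepG2 anti-HOXA13 intervals came in blocks. Over 80 bins of 1 Mb, the variance of the HepG2 anti-HOXA13 count was 20.9 times its mean, whereas it was 3.86 times in HepG2 anti-HA, 4.06 in Huh7 anti-HA and 2.33 in Huh7 anti-HOXA13. This measure grows with the number of intervals in a list. The coefficient of variation was 0.510 for HepG2 anti-HA, 0.883 for HepG2 anti-HOXA13, 0.591 for Huh7 anti-HA and 0.760 for Huh7 anti-HOXA13. The fullest HepG2 anti-HOXA13 bin, 77 to 78 Mb, held 121 intervals, of which 102 lay within 0.4 Mb. The same bin held 15 in HepG2 anti-HA, 8 in Huh7 anti-HA and 8 in Huh7 anti-HOXA13. The fullest bin of HepG2 anti-HA was 49 to 50 Mb with 34, that of Huh7 anti-HA was 1 to 2 Mb with 31, and that of Huh7 anti-HOXA13 was 18 to 19 Mb with 13. No bin was the fullest in more than 1 list.

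**Figure D3:**
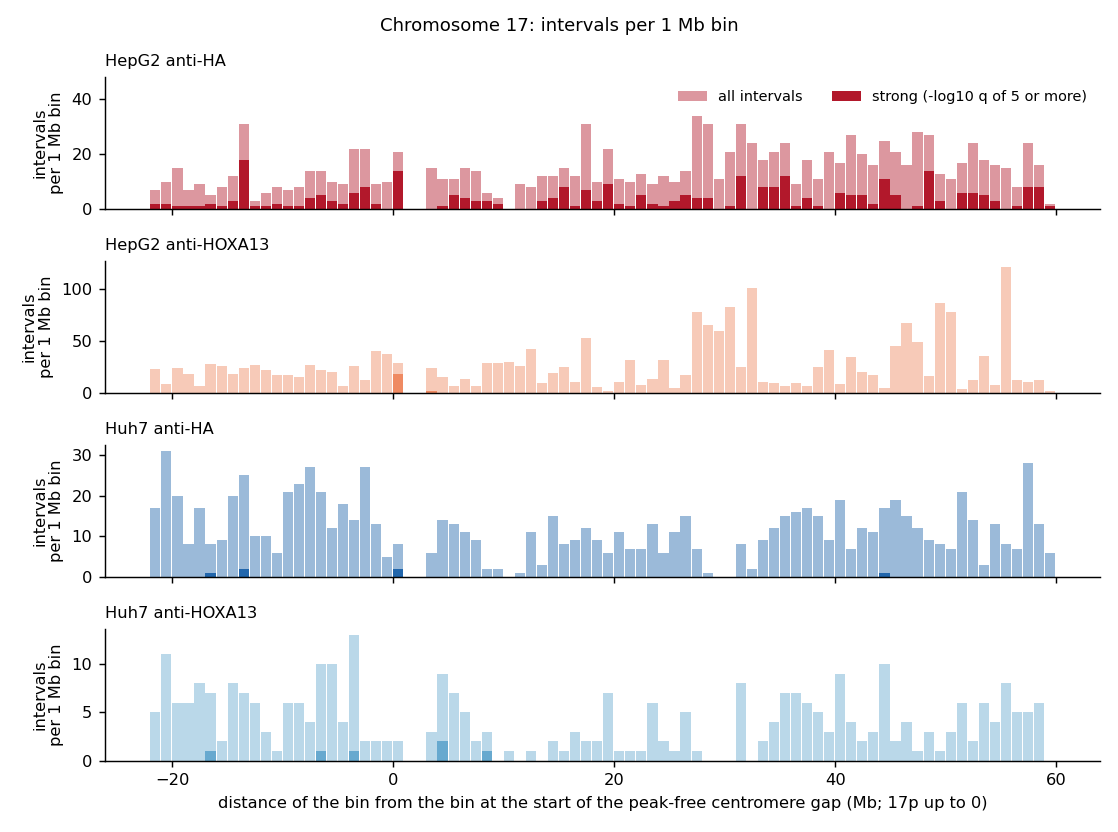
Intervals per 1 Mb bin along chromosome 17, 1 panel per list with its own vertical scale, against the distance in Mb from the bin where the peak-free centromere gap starts. Pale bars count all intervals and dark bars the strong ones. HepG2 anti-HOXA13 shows tall blocks on 17q, up to 121 intervals in 1 bin. The block from 49 to 55 Mb of the chromosome holds 412 there, against 18 in Huh7 anti-HA and 9 in Huh7 anti-HOXA13.

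The stretch from 49 to 55 Mb, picked after the bins were seen, was full in the HepG2 lists and sparse in the Huh7 lists. HepG2 anti-HA held 152 intervals there, HepG2 anti-HOXA13 412, Huh7 anti-HA 18 and Huh7 anti-HOXA13 9, or 25.3, 68.7, 3.00 and 1.50 per Mb. These 412 were 19.3% of the HepG2 anti-HOXA13 intervals on the chromosome, and 0 of them were strong or had raised input. Of the 152 HepG2 anti-HA intervals, 21 were strong and 16 had raised input. From 50 to 53 Mb within it, HepG2 anti-HA held 63 and HepG2 anti-HOXA13 208, while Huh7 anti-HA held 1 and Huh7 anti-HOXA13 held 0. In the next 5 Mb, 55 to 60 Mb, the order of the HepG2 lists turned. HepG2 anti-HA held 90 intervals, HepG2 anti-HOXA13 45, Huh7 anti-HA 69 and Huh7 anti-HOXA13 26. The lists differ in length, and these were 7.58%, 2.11%, 7.41% and 8.05% of their chromosome 17 intervals. By that share the anti-HA lists were close, and HepG2 anti-HOXA13 lay below Huh7 anti-HOXA13. There 33 of the 90 HepG2 anti-HA intervals were strong, over a median expected pileup of 8.19, whereas it was 2.77 from 49 to 55 Mb. A like change over a short distance was seen at 71 to 74 Mb. From 71 to 73 Mb HepG2 anti-HOXA13 held 165 intervals and HepG2 anti-HA 24, but from 73 to 74 Mb it held 4 and HepG2 anti-HA held 17, with a median expected pileup of 15.1. Over the 79 bins with a HepG2 anti-HA interval, the HepG2 anti-HOXA13 count was lower in bins where the median expected pileup of HepG2 anti-HA was higher, with a rho of −0.60, whereas it was 0.11 for the HepG2 anti-HA count itself. The same rho was −0.53 over the 36 bins of chromosome 22, and its median over the 22 autosomes was 0.03. Chromosomes 17 and 22 ranked 4 and 5 from the lowest of the 22. Chromosomes 20, 2 and 16 stood lower, at −0.88, −0.74 and −0.70, so the pattern was not particular to chromosomes 17 and 22. These bins share libraries and base composition, so the values are descriptions.

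Strong HepG2 anti-HA intervals were spread over 69 of the 80 bins of chromosome 17. Their highest count was 18, in the bin from 8 to 9 Mb, where 31 intervals lay in all. That bin held 24 intervals in HepG2 anti-HOXA13, 25 in Huh7 anti-HA and 7 in Huh7 anti-HOXA13, of which 0, 2 and 0 were strong. The next highest were the last bin before the centromere gap and the bin from 70 to 71 Mb, with 14 each.

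The end of 17p before the gap stood on high input in every list. The last Mb of 17p held 18 of the 20 strong HepG2 anti-HOXA13 intervals of chromosome 17, and all 18 had raised input. It held 14 of the 298 strong HepG2 anti-HA intervals, 2 of the 6 strong Huh7 anti-HA intervals and 0 of the 6 strong Huh7 anti-HOXA13 intervals. The median expected pileup there was 27.5 for HepG2 anti-HA, 5.51 for HepG2 anti-HOXA13, 65.2 for Huh7 anti-HA and 79.0 with Huh7 anti-HOXA13. These medians came from 27, 58, 10 and 2 intervals in that order, so the last rests on 2 intervals only. No fold there exceeded 4.69. Such edges of a centromere are known for repeats whose copies are collapsed in an assembly, and the part of repeats was not tested here. In the last 16.1 kb, chr17:22245537-22261674, 9 regions were shared by 3 or more lists, all with raised input in every list that held them. One of them, chr17:22245537-22245993, was the only region on either chromosome present in all 4 lists. Its folds were 1.97 with HepG2 anti-HA, 2.65 with HepG2 anti-HOXA13, 1.64 with Huh7 anti-HA and 1.30 with Huh7 anti-HOXA13.

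On chromosome 22, the anti-HA lists of the lines resembled each other and HepG2 anti-HOXA13 ran against Huh7 anti-HA. Against HepG2 anti-HA its bin counts had a weakly negative rho of −0.24, which was −0.027 without raised input. The bin from 29 to 30 Mb was 1 of the 2 fullest in HepG2 anti-HA, with 19 intervals, 10 of them strong, and it held 2 in HepG2 anti-HOXA13, 16 in Huh7 anti-HA and 6 in Huh7 anti-HOXA13. Conversely, the bin from 49 to 50 Mb held 8 intervals of HepG2 anti-HA, 53 of HepG2 anti-HOXA13, 5 of Huh7 anti-HA and 0 of Huh7 anti-HOXA13. The fullest HepG2 anti-HOXA13 bin was the first of the covered sequence, 16 to 17 Mb, with 66. The fullest Huh7 anti-HA bin was 50 to 51 Mb with 37, of which 29 had raised input, over a median expected pileup of 11.2. HepG2 anti-HA held 16 in that bin, HepG2 anti-HOXA13 25 and Huh7 anti-HOXA13 10. Huh7 anti-HOXA13 had a highest count of 11 in the bins from 23 to 24 and 33 to 34 Mb.

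**Figure D4:**
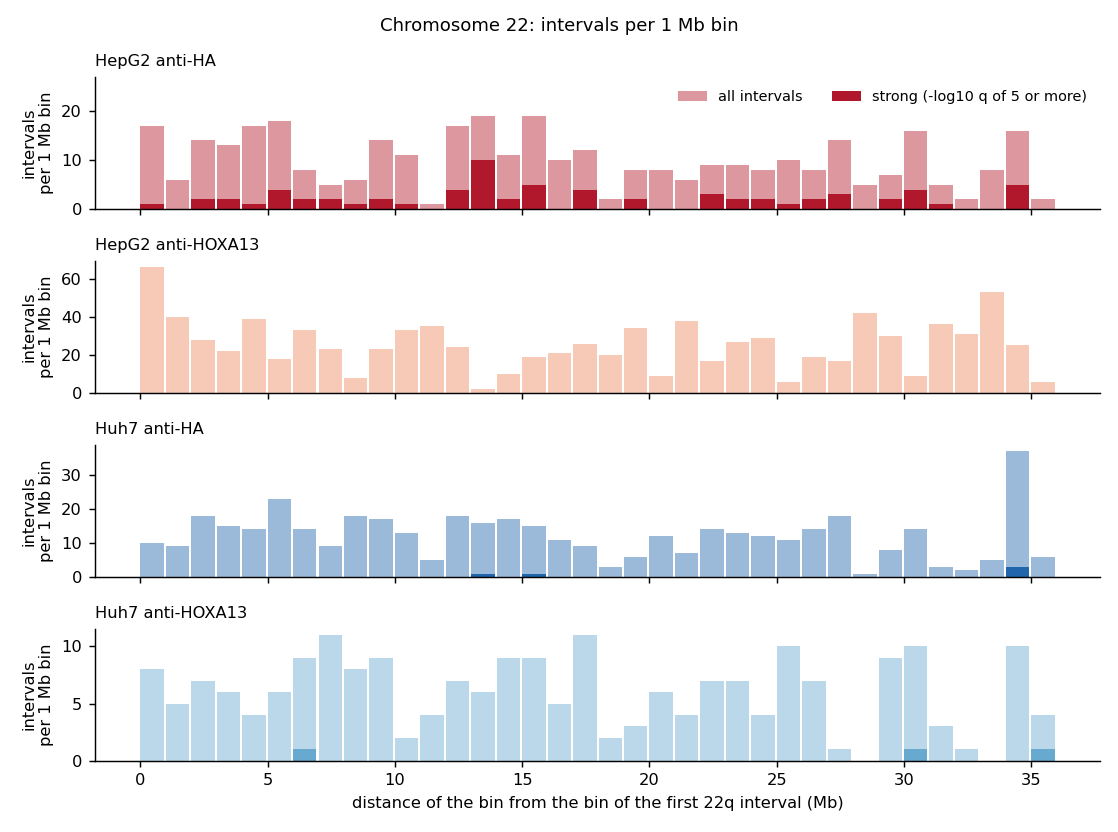
Intervals per 1 Mb bin along chromosome 22, 1 panel per list with its own vertical scale, against the distance in Mb from the bin of the first interval of the long arm. Pale bars count all intervals and dark bars the strong ones. The bin at 13 Mb is 1 of the 2 fullest in HepG2 anti-HA, with 19 intervals, and holds 2 in HepG2 anti-HOXA13.

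The likeness of the lists along the bins put chromosome 22 at both ends of the autosomes. For HepG2 anti-HA and Huh7 anti-HA the Spearman rho of bin counts was 0.75 over the 36 bins of chromosome 22, the highest of 22 autosomes, and 0.12 over the 80 bins of chromosome 17, against a median autosome of 0.38. Without raised input these were 0.53 and 0.05, and the ranks among the autosomes were not recomputed. For HepG2 anti-HA and HepG2 anti-HOXA13, from the same line, it was −0.24 on chromosome 22, the lowest of 22, and 0.09 on chromosome 17, against 0.24. Without raised input these HepG2 values were −0.027 and 0.47, so the HepG2 lists were alike on chromosome 17 once those intervals were left out. HepG2 anti-HOXA13 and Huh7 anti-HA ran against each other on both chromosomes, with rho of −0.39 on chromosome 17 and −0.48 on chromosome 22, against −0.10. In bins of 2 Mb these were −0.23 and −0.62, and without raised input they were −0.29 and −0.30. The chromosomes ranked 5 and 3 from the lowest for this pair, and chromosomes 20 and 16 stood lower, at −0.58 and −0.56. HepG2 anti-HOXA13 also ran against Huh7 anti-HOXA13, at −0.33 and −0.38, against −0.06. The pattern was thus particular neither to these chromosomes nor to anti-HA in Huh7. The Huh7 lists were alike, at 0.59 and 0.46, but less so than on the median autosome, at 0.69. Bins of 1 chromosome share libraries, gene content and base composition, and these values carry no test.

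**Figure D5:**
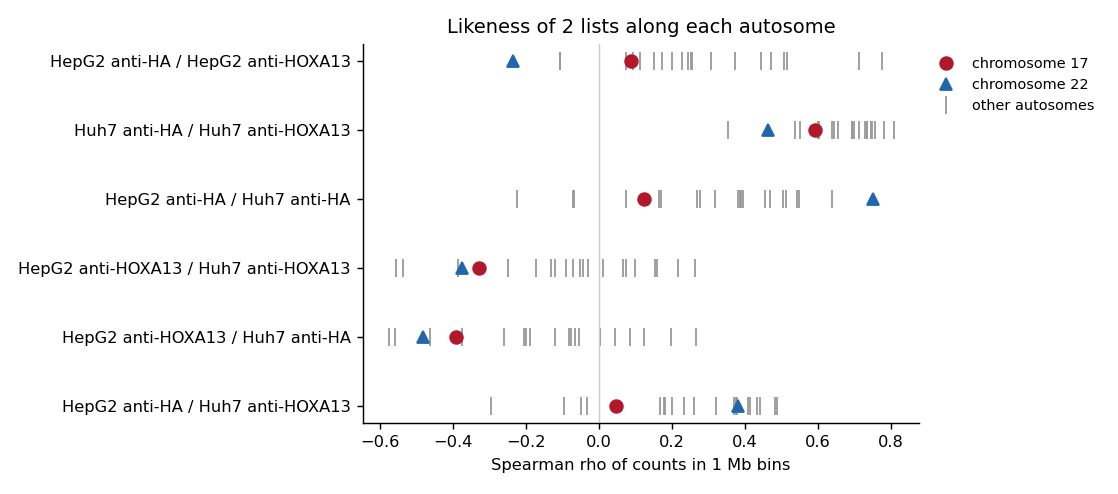
Spearman rho between the 1 Mb bin counts of 2 lists, for each of 6 pairs of lists, on chromosome 17 (circles), chromosome 22 (triangles) and each other autosome (ticks). Chromosome 22 has the highest rho of the autosomes for the anti-HA lists of the lines (0.75) and the lowest for the HepG2 lists (−0.24). Intervals with raised input are included.

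Few intervals coincided between lists, and the anti-HA lists of the lines shared the most. On chromosome 17, 125 of 1188 HepG2 anti-HA intervals (10.5%, 8.83 to 12.4%) overlapped a Huh7 anti-HA interval by at least 1 bp, and on chromosome 22, 46 of 361 (12.7%, 9.48 to 16.6%), against 6.79% on the other autosomes. From the Huh7 anti-HA side the shares were 131 of 931 on chromosome 17 (14.1%, 11.9 to 16.5%) and 45 of 437 on chromosome 22 (10.3%, 7.61 to 13.5%), against 8.5%. With raised input left out of both lists, the share of HepG2 anti-HA intervals was 2.56% (1.55 to 3.97%) on chromosome 17 and 5.05% (2.79 to 8.33%) on chromosome 22, against 3.70% (3.48 to 3.93%) elsewhere. From the Huh7 anti-HA side it was 2.62% (1.63 to 3.98%) and 4.24% (2.34 to 7.02%), against 4.12% (3.88 to 4.38%). The excess over the other autosomes was therefore no longer beyond counting error on either chromosome, and on chromosome 17 the share was lower than elsewhere from the Huh7 side. The overlaps formed 124 shared regions on chromosome 17 and 45 on chromosome 22, with summits a median of 70 bp apart. Of the overlapping HepG2 anti-HA intervals, 102 of 125 on chromosome 17 and 25 of 46 on chromosome 22 had raised input, against 1098 of 2209 elsewhere.

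Between antibodies in the same line the overlap was small. On chromosome 17, 55 of 1188 HepG2 anti-HA intervals (4.63%, 3.51 to 5.98%) overlapped HepG2 anti-HOXA13, and on chromosome 22, 14 of 361 (3.88%, 2.14 to 6.42%), against 4.23% elsewhere. From the HepG2 anti-HOXA13 side, 56 of 2137 (2.62%, 1.99 to 3.39%) and 14 of 918 (1.53%, 0.836 to 2.55%) overlapped, against 2.03%. In Huh7, 7 of 931 anti-HA intervals on chromosome 17 (0.752%, 0.303 to 1.54%) and 2 of 437 on chromosome 22 (0.458%, 0.0555 to 1.64%) overlapped anti-HOXA13, against 0.63%. From the Huh7 anti-HOXA13 side, 7 of 323 (2.17%, 0.876 to 4.41%) and 2 of 214 (0.935%, 0.113 to 3.34%) did, against 1.75%. The intervals of these shares include the value of the other autosomes. The anti-HOXA13 lists of the lines shared 5 intervals on each chromosome. These were 0.234% (0.0760 to 0.545%) and 0.545% (0.177 to 1.27%) of HepG2 anti-HOXA13, against 0.353%, and 1.55% (0.504 to 3.58%) and 2.34% (0.763 to 5.37%) of Huh7 anti-HOXA13, against 2.43%. On chromosome 22, 12 of 437 Huh7 anti-HA intervals (2.75%, 1.43 to 4.75%) overlapped HepG2 anti-HOXA13, against 1.37%, and all 12 were without raised input. From the HepG2 anti-HOXA13 side these were 12 of 918 (1.31%, 0.677 to 2.27%), against 0.495%. This pair thus shared more on chromosome 22 than elsewhere by both shares, but the lower limit of 1.43% was close to 1.37%. On chromosome 17 the shares were 1.29% (0.668 to 2.24%) and 0.562% (0.290 to 0.979%). Both intervals include the value elsewhere. When 0.5 of the shorter interval had to overlap, the Huh7 anti-HA share on chromosome 22 was 2.06%. Whether an excess remained under that rule was not tested. Merged over the lists, chromosome 17 held 4180 regions in 1 list, 178 in 2, 10 in 3 and 1 in 4, and chromosome 22 held 1778, 71, 3 and 0. Of the regions in 3 or more lists, 5 lay outside the edge of the centromere. Those at chr17:8076455-8076983 and chr17:27229686-27230422 had raised input in at least 1 list, and that at chr22:50467442-50467748 had it in every list that held it. The remaining regions, chr22:18669888-18670195 and chr22:43828631-43828875, had no raised input and were both in HepG2 anti-HA, HepG2 anti-HOXA13 and Huh7 anti-HA. At the first of these the folds were 3.20, 1.92 and 2.18 in that order of lists, and at the second 2.26, 3.08 and 2.65.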

How the data were processed

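Each of the 4 lists was called by the authors on 1 ChIP library against its input. The submitters' processing notes name BWA and MACS2, with neither a version nor a setting. The deposited columns are a score, a fold (a ratio of ChIP to expected pileup with 1 added to each, the ChIP pileup of Huh7 anti-HOXA13 scaled first by 0.812, a factor solved from the values), the −log10 p-value and −log10 q-value at the summit, and the distance of the summit from the interval's start. The lowest −log10 p was 2.00 in every list. The notes name GRCh38, but the contig names are those of GRCh37, and 32 intervals lay past the last GRCh38 gene of chromosome 22, so coordinates are GRCh37, 1-based. Sequence and annotation of GRCh37 were not used here, so no gene was named and no sequence printed. RefSeq (GRCh38) gave only gene counts and promoter GC by chromosome. The 4 IgG libraries were not analysed here, and 0 columns were left out.

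Whole ChIP pileups and expected pileups were solved from fold and p with MACS2's formulas, for 99.99% or more of each list, and checked on simulated data. Their background levels were 2.62, 1.73, 2.61 and 2.60 in the order HepG2 anti-HA, HepG2 anti-HOXA13, Huh7 anti-HA and Huh7 anti-HOXA13. All heights are the authors' values, used within a list. Densities are counts over covered Mb, binned by summit, with exact conditional intervals for ratios, Clopper-Pearson intervals for shares, order-statistic intervals for medians and Poisson intervals of the ChIP pileup for folds. PCR reads are not independent molecules, so these cover counting error only. The intervals named are, per list, the 5 highest folds on chromosome 17 and 3 on chromosome 22 with ties parted by q, those overlapping all other lists, and the fullest bins; of the tied or similar ones a part is printed. Members and lists were chosen with earlier results of these data known. The stretches of several Mb, the 0.4 Mb window, the centromere edge, the regions in 3 lists and the median autosome were chosen after the values were seen. Scripts ran under Python 3.11.15 with matplotlib 3.10.9, scipy 1.17.1, pandas 2.3.3 and numpy 2.4.6.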

Additional observations from a re-analysis of the deposited data

Results flagged for a closer look

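The 17p over 17q density ratio lay on opposite sides of 1 in the cell lines, at 0.729 in HepG2 anti-HA and 0.762 in HepG2 anti-HOXA13 but at 1.66 in Huh7 anti-HA and 1.72 in Huh7 anti-HOXA13. Each line had 1 library per antibody, so the difference between the lines was not tested. The copies of each arm and their part in the ratios were not measured.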

How the results depend on the processing

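No paired analysis was possible because each condition had 1 library. Values below are ratios of density unless named otherwise, and the cause of each change was not tested where none is given. Reversed means that the interval of the ratio in Results excluded 1 and the value below lay on the other side of 1. The interval of the value below was not required to exclude 1. Where the interval in Results included 1, a value on the other side is printed without that word. These values were 0.641 for chromosome 17 in Huh7 anti-HOXA13 and 1.25 for chromosome 22 in HepG2 anti-HOXA13.

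With only intervals of q of 0.05 or less, the chromosome 17 ratio was 1.39 for HepG2 anti-HA, 1.13 for HepG2 anti-HOXA13, 1.76 for Huh7 anti-HA and 0.641 for Huh7 anti-HOXA13, the last from 18 intervals. The chromosome 22 ratio was 0.783 for HepG2 anti-HOXA13, 2.17 for Huh7 anti-HA and 1.03 (0.545 to 1.77) for Huh7 anti-HOXA13, from 13 intervals. The 17p over 17q ratio was 0.875, 0.943, 2.11 and 3.14 in the order HepG2 anti-HA, HepG2 anti-HOXA13, Huh7 anti-HA and Huh7 anti-HOXA13.

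With lists of equal length, chromosome 17 stood at 1.44 for HepG2 anti-HA, 1.09 for HepG2 anti-HOXA13 and 1.30 for Huh7 anti-HA, and chromosome 22 at 0.467 for HepG2 anti-HOXA13 and 1.31 for Huh7 anti-HA. The 17p over 17q ratio was 0.914 (0.709 to 1.17) in HepG2 anti-HA and 1.33 (0.906 to 1.93), reversed, in HepG2 anti-HOXA13. Without 49 to 55 Mb of 17q, set after the data were seen, it was 0.909 (0.817 to 1.01) in HepG2 anti-HOXA13.

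Without raised input, chromosome 17 was reversed at 0.899 (0.835 to 0.967) in HepG2 anti-HA and stood at 1.06 in Huh7 anti-HA. In Huh7 anti-HA, chromosome 22 was reversed at 0.973 (0.870 to 1.08), and 17p over 17q was 1.37. Against the median autosome, chosen after the data were seen, chromosome 17 stood at 1.57 in HepG2 anti-HA and 1.31 in HepG2 anti-HOXA13, and chromosome 22 at 1.06, reversed, in HepG2 anti-HA and 1.25 in HepG2 anti-HOXA13. Peak-free stretches of 0.5 Mb in place of 1 kept all 12 ratios within their intervals.

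The share of strong HepG2 anti-HA intervals was 15.3% on chromosome 17 and 11.1% on chromosome 22 at a −log10 q of 10 or more, and 15.2% on chromosome 17 among intervals without raised input. The HepG2 anti-HA share overlapping Huh7 anti-HA on chromosome 17 was 8.75% when 0.5 of the shorter interval had to overlap, and 2.56% without raised input, which left 5.05% on chromosome 22. From the Huh7 anti-HA side it was 11.4% on chromosome 17 under the stricter overlap, and 2.62% and 4.24% on chromosomes 17 and 22 without raised input.

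In bins of 2 Mb, rho on chromosome 17 was 0.34 for the HepG2 lists, −0.23 for HepG2 anti-HOXA13 and Huh7 anti-HA and 0.82 for the Huh7 lists; on chromosome 22 it was −0.42 for the HepG2 lists and −0.62 for HepG2 anti-HOXA13 and Huh7 anti-HA. Without raised input the HepG2 lists had 0.47 on chromosome 17 and −0.027 on chromosome 22, HepG2 anti-HOXA13 and Huh7 anti-HA had −0.29 and −0.30, and the anti-HA lists had 0.53 on chromosome 22. With 7 reads at the median summit of HepG2 anti-HOXA13 and 0 to 34 intervals a bin in the Huh7 and HepG2 anti-HA lists of chromosome 17, small differences are not detectable.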
